A study of Mus musculus with 18 samples.

Results

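The genes described here belong to the transcriptional response to low oxygen and to glycolysis, measured in AB1 mouse embryonic stem (ES) cells. The list held 35 genes, 14 glycolytic enzymes and 21 other targets or regulators of hypoxia-inducible factor (HIF), out of 18193 genes with a probe set of their own on the array. Members were found by gene symbol. Bnip3 and Ndufa4l2 had been picked for their higher signal in untreated knockout cells, and the other genes as known HIF targets and enzymes of the pathway with earlier results of these arrays in view. The difference between the genotypes in untreated cells therefore chose the genes and is given below as a description with no test. Of the 35 genes, 31 had a probe set annotated to that gene alone. No such probe set stood for Bnip3l, Gpi1, Eno1 or Gapdh. A gene was tested where at least 2 arrays reached a signal of 100, which 30 members did, 11 glycolytic enzymes and 19 others, among 11387 genes in all. The member that did not was Car9.

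HIF is a heterodimer whose alpha subunit is hydroxylated by oxygen-dependent prolyl hydroxylases (the Egln genes) and then degraded. When oxygen is low the alpha subunit persists, binds hypoxia response elements and raises glucose transporters, nearly every enzyme of glycolysis, pyruvate dehydrogenase kinase and mitophagy receptors. Mouse ES cells are highly glycolytic in ordinary culture, and this changes as they differentiate.

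Cells were wild type or CYP26A1-/-, called knockout here; CYP26A1 hydroxylates retinoic acid (RA) and so clears it from the cell. The arrays of each genotype comprised 3 of controls at 8 h, 3 of cells given 100 nM RA for 8 h and 2 of cells given 100 nM RA for 72 h. LIF (leukemia inhibitory factor), which holds mouse ES cells undifferentiated, was present in all of these. A single control array per genotype came from cells held 8 h without LIF, which makes 18 arrays. There was no untreated culture at 72 h among these groups, so the effect of RA and that of the time in culture cannot be told apart at 72 h. The labels do not say whether the knockout line was 1 clone, nor whether repeats were separate cultures, so p-values describe variation among these samples, part or all of which may be technical.

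Several facts of the arrays touch the results. Socs3, a target of LIF signalling, read 367 (wild type) and 215 (knockout) on replicate 1 of the controls labelled with LIF, 3800 and 4551 on the arrays labelled without LIF, and 2628 to 6001 on the other 14 arrays. The LIF labels of those 4 arrays thus go against this gene, and results that rest on controls are also given with the labels exchanged. The p-values of all comparisons draw on the replicate 1 controls too, through the shared estimate of the spread. The Cyp26a1 probe set read 193 to 216 in knockout and 637 to 1695 in wild-type cells after 8 h of RA. At 72 h it read 2873 to 3075 in knockout and 3211 to 3402 in wild-type cells. The labels do not say which part of the gene is missing, so this probe set does not check the genotype. The 3' to 5' ratio of the Actb control probe sets, a measure of RNA integrity, was 1.71 to 2.05 on replicate 1, 1.49 to 1.72 on replicate 2 and 1.24 to 1.41 on replicate 3 of both genotypes, and that of Gapdh was 0.76 to 0.844. The lowest signal of any of 8 ES cell markers on any array was 2977, against a floor of 50 set for the tests. The summed signal of 12 extraembryonic endoderm markers was 4493 to 11548 in wild-type and 2980 to 4986 in knockout controls, 5596 to 11383 and 4507 to 4999 after 8 h of RA, and 28334 to 30994 and 22957 to 23703 after 72 h. Sox17 and Foxa2 of that list lay below the floor on all knockout control and 8 h RA arrays with LIF. In RNA from whole cultures, fewer cells of a type and less RNA per cell cannot be told apart.

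The core of the hypoxia response element is ACGTG or GCGTG. The promoters of 4 members are printed to show both kinds of gene: Bnip3 and Tpi1, which were higher in knockout cells, and P4ha2 and Ddit4, which were lower there after 8 h of RA. Each is the 250 bases upstream of a RefSeq transcription start (GRCm38.p6), 5′ to 3′ on the gene's strand, with matches to either core on either strand in capitals, so that CACGT and CACGC are cores on the opposite strand. Bnip3 lies at chr7:138909507-138909756 (minus strand), Tpi1 at chr6:124814159-124814408 (minus), P4ha2 at chr11:54100674-54100923 (plus) and Ddit4 at chr10:59951771-59952020 (minus).
Bnip3: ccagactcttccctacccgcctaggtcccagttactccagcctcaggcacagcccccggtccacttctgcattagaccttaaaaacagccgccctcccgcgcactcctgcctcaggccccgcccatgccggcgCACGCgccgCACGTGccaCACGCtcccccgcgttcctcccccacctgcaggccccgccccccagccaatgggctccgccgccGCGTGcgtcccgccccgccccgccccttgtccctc
Tpi1: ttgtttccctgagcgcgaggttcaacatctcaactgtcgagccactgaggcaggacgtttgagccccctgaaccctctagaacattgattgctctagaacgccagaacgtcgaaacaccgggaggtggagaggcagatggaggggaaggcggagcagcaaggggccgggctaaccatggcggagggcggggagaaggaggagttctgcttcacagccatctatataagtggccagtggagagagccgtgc
P4ha2: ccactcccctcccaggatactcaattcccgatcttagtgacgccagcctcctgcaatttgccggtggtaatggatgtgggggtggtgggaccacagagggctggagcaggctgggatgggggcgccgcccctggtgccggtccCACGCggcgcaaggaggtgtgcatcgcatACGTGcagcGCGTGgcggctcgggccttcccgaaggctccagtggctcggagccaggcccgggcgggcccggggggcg
Ddit4: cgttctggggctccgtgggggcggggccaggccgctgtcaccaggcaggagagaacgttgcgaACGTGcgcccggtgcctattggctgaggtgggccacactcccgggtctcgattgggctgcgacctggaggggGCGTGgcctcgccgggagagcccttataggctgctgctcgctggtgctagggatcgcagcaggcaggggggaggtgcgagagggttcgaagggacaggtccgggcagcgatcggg
The Bnip3 promoter held 4 marked stretches, 1 of them the palindrome CACGTG in which a core on each strand overlaps, 108 bases before the start. The P4ha2 promoter held 3 stretches, at 107, 78 and 69 bases before the start, and that of Ddit4 held 2, at 187 and 115 bases. The Tpi1 window held none, which says only that these letters are not in this window. RefSeq promoters were matched for 29 of the measured members. Of their 40 promoter windows 31 (77.5%) held either core, against 38.6% of all 32851 promoter windows of that length. ACGTG was in 22 (55%, against 16.6% of all), GCGTG in 20 (50%, against 28.2%) and the palindrome CACGTG in 4 (10%, against 6.02%). Members were chosen as known HIF targets and enzymes of the pathway, so a higher share of this core can come from that choice. The 40 windows belong to 29 genes and are not independent. A match is a description of the sequence and not a measured binding site.

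**Figure D1:**
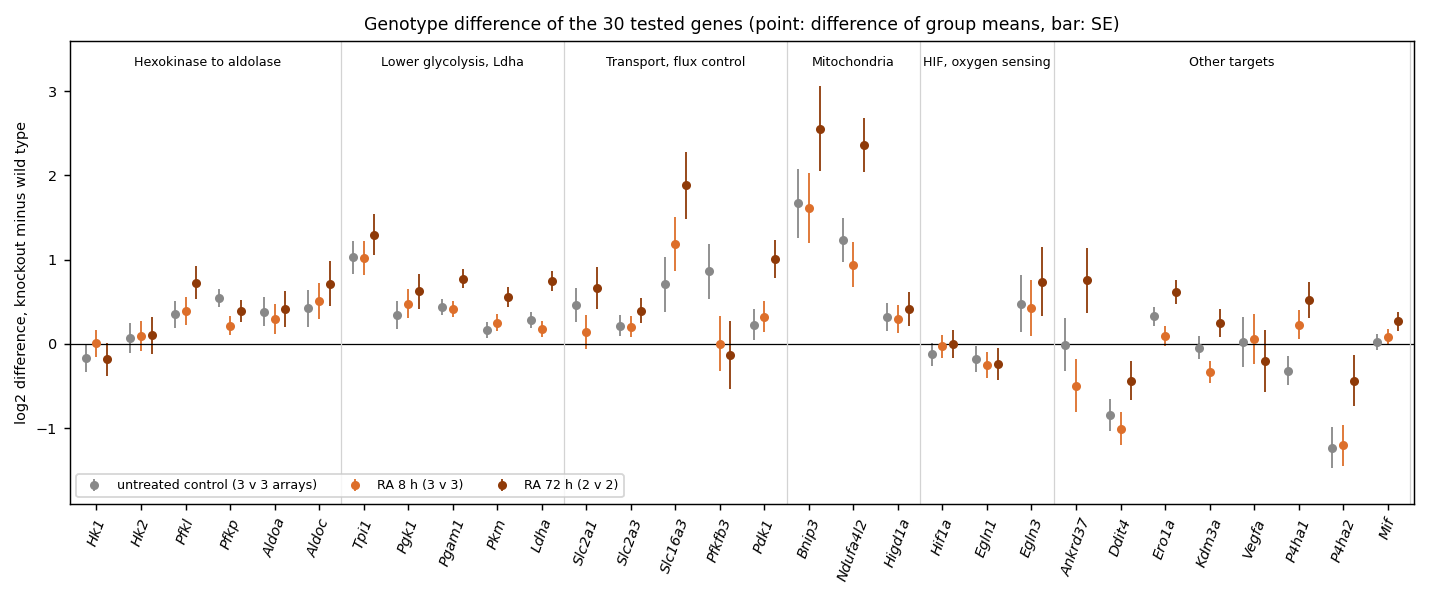
Log2 difference between knockout and wild-type cells for the 30 tested genes (x axis, grouped by role) in untreated cells, after 8 h and after 72 h of RA, as the difference of group means with its SE. Bnip3, Ndufa4l2, Slc16a3 and Tpi1 lie highest at 72 h, and Ddit4 and P4ha2 lie below 0 in all 3 conditions.

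With RA present, the members called higher in knockout cells at both times were the mitophagy receptor Bnip3, the lactate exporter Slc16a3 and the enzymes Tpi1 and Pgam1. Of these 4, Tpi1 alone kept its call at 8 h in every alternative fit given at the end. After 8 h of RA, 4 of 30 members were higher in knockout cells (Tpi1, Pgam1, Bnip3 and Slc16a3) and 2 were lower (Ddit4 and P4ha2), where 1.7% of all tested genes were higher and 2.91% lower. After 72 h, 9 members were higher (Bnip3, Ndufa4l2, Slc16a3, Tpi1, Pdk1, Pgam1, Ldha, Ero1a and Pkm) and 0 lower. Of all genes 1.39% were higher and 2.68% lower at that time. An unadjusted p under 0.05 was reached by 17 members at 72 h, and by 1821 of all 11387 tested genes. With the replicate number as a block, 9 members were called at 8 h (Ndufa4l2, Pfkl and Pgk1 were added) and 15 at 72 h (Aldoa, Aldoc, Pfkl, Pgk1, Slc2a1 and Slc2a3 were added). The shares of all genes above belong to the fit without the block. That of the block fit is not given, so these 2 counts have no background beside them. Ndufa4l2 reached a signal of 100 on 7 knockout and 0 wild-type arrays, so it was tested through the genotype where it is high. Without it, 8 of 29 members were higher at 72 h. Bnip3 was picked for its higher signal in untreated knockout cells, where its log2 difference of 1.67 was near that of 1.61 at 8 h. Its place in these counts is therefore no separate support. The other members called at 8 h also differed in untreated cells: Tpi1 by 1.03, Pgam1 by 0.43, Slc16a3 by 0.71, P4ha2 by -1.23 and Ddit4 by -0.85. Their values at 8 h were 1.02, 0.41, 1.19, -1.20 and -1.01. All members were chosen with earlier results of these arrays in view. The counts and medians of genotype differences given here are therefore a description and no independent support. The median log2 difference of the 11 glycolytic enzymes was 0.29 at 8 h and 0.63 at 72 h, that of the 19 others 0.09 and 0.41, and that of all tested genes -0.01 at both times. All 11 enzymes lay above 0 at 8 h and 10 of 11 at 72 h, against 5486 and 5507 of all 11387 tested genes. Among them Pgam1 lies on chromosome 19, whose 414 tested genes had a median difference of 0.48 at both times. All tested genes are therefore not a like background for Pgam1. A gene is called here when its limma p, adjusted by Benjamini-Hochberg over all tested genes, is under 0.05, and ± after a log2 difference is its standard error.

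These counts depended on single arrays. At 8 h, 3 members were called without wild-type RA replicate 1, without wild-type RA replicate 3 or without knockout RA replicate 3. At 72 h, 3 were called without wild-type replicate 1 or without knockout replicate 2, and 5 without knockout replicate 1; the lone array left at 72 h is then assumed to vary like the other groups. At 72 h the summed signal of 6 trophectoderm markers was 7165 to 7310 in wild-type and 2400 to 2791 in knockout cells, and that of the 8 ES cell markers was 65098 to 69562 and 86979 to 94694. Of the trophectoderm markers, Elf5 lay below the floor on all 72 h arrays of each genotype and Cdx2 on those of knockout cells. The 2 called lower in knockout cells were Krt7 (-1.68 ± 0.27) and Krt8 (-1.62 ± 0.33). The part of these marker differences in the members' results was not tested.

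In untreated cells, whose genotype difference chose Bnip3 and Ndufa4l2, the largest log2 differences were 1.67 ± 0.41 for Bnip3, 1.23 ± 0.26 for Ndufa4l2, 1.03 ± 0.20 for Tpi1, 0.86 ± 0.33 for Pfkfb3 and 0.71 ± 0.32 for Slc16a3. They were followed by Pfkp at 0.55, Egln3 at 0.48 and Slc2a1 at 0.46. P4ha2 (-1.23 ± 0.24) and Ddit4 (-0.85 ± 0.19) had the lowest values. The medians were 0.35 for the enzymes, 0.22 for the others and 0.00 for all genes. With the LIF labels exchanged the 2 list medians were 0.28 and 0.17, and without both replicate 1 control arrays they were 0.34 and 0.16. For Bnip3 these settings gave 1.52 and 1.62, for Ndufa4l2 0.77 and 1.16, for Pfkp 0.28 and 0.43, and for Egln3 0.30 and 0.16.

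Bnip3 encodes a mitophagy receptor of the outer mitochondrial membrane. Its signal in wild-type cells was 983, 572 and 336 in controls, 409, 499 and 232 after 8 h of RA and 353 and 541 after 72 h. In knockout cells it was 3379, 1605 and 1123, then 907, 1448 and 1029, then 2445 and 2708. Every knockout array lay above every wild-type array of the same condition, and within the controls of each genotype replicate 1 was the highest. Those are the arrays whose LIF label Socs3 goes against and whose Actb ratio was the highest of their group, and the part of either in this order was not tested. The arrays without LIF read 409 (wild type) and 1023 (knockout). The genotype difference was 1.61 ± 0.41 after 8 h of RA (adjusted p = 0.0358) and 2.56 ± 0.50 after 72 h (adjusted p = 0.00819), the highest of all 11387 differences at 72 h. At 8 h the adjusted p was 0.0671 to 0.142 without any 1 of 5 arrays, all but wild-type replicate 2. At 72 h it was 0.0582 to 0.0999 without wild-type replicate 1, knockout replicate 1 or knockout replicate 2.

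Ndufa4l2 encodes a mitochondrial protein that HIF induces and that lowers respiratory complex I activity. It read 19.1, 10.2 and 79.98 in wild-type controls, 22.4, 28.4 and 23.8 after 8 h of RA and 40.4 and 87.1 after 72 h, so that most wild-type arrays lay below the floor of 50. Knockout cells read 131, 134 and 148, then 107, 73.0 and 114, then 296 and 391. Knockout arrays were above the wild-type arrays in each condition, while the knockout array without LIF, at 23.1, lay with the wild type. At 8 h, where all wild-type arrays were below the floor, the knockout signal was at least 1.92-fold higher (0.94 ± 0.26, adjusted p = 0.055, not called, and 0.0294 with the block). At 72 h the difference was 2.36 ± 0.32 (adjusted p = 0.000829), computed with 1 of the 2 wild-type arrays set to the floor. Since no wild-type array reached 100, the gene passed the filter on low values through knockout arrays alone, and these values are a description of its excess there. Higd1a, a mitochondrial HIF target that acts on the respiratory chain, differed by 0.30 ± 0.17 at 8 h and 0.41 ± 0.21 at 72 h and was not called.

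**Figure D2:**
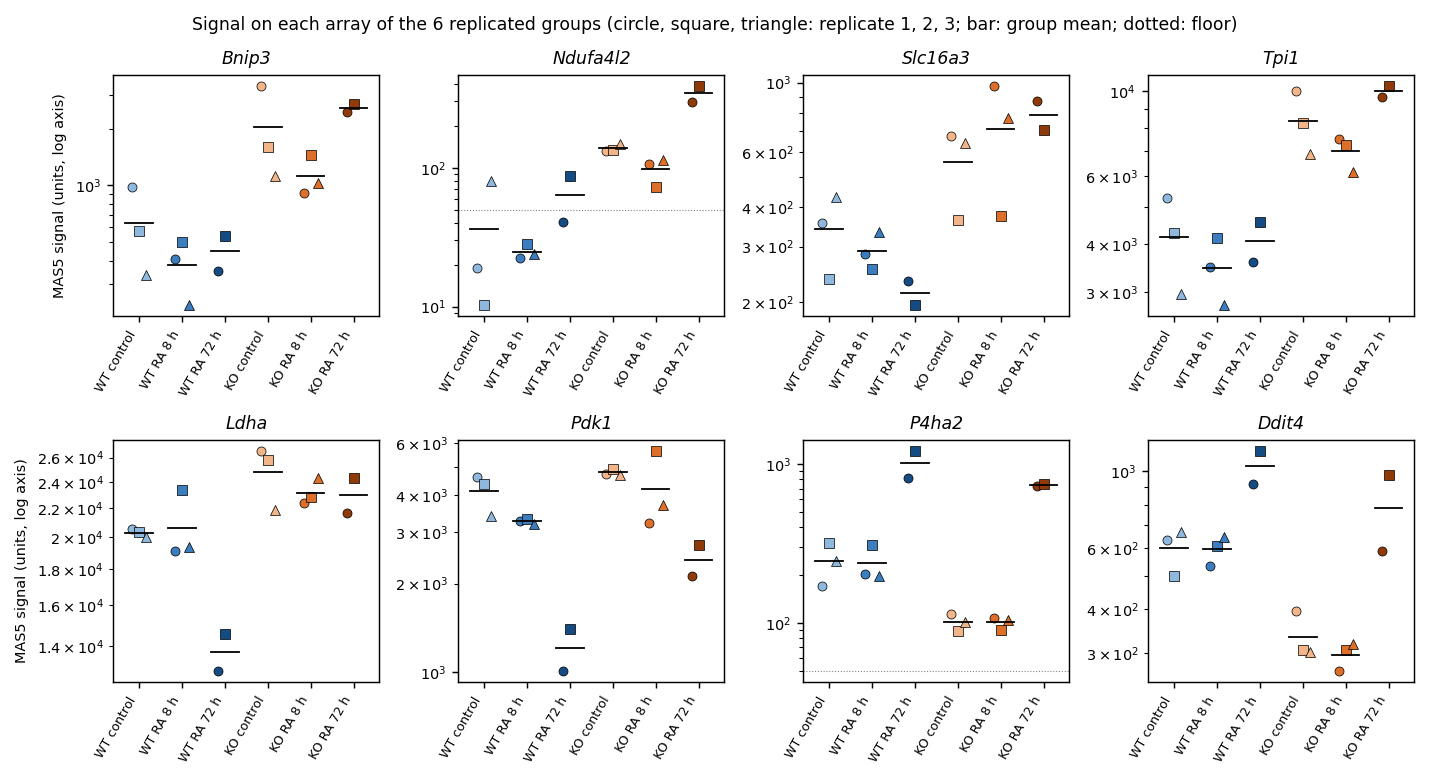
MAS5 signal (log axis) of 8 genes on each array of the 6 replicated groups; markers give the replicate, bars the group mean and the dotted line the floor of 50. For Bnip3, Tpi1 and Ndufa4l2 every knockout array lies above the wild-type arrays of its condition, and for P4ha2 and Ddit4 the control and 8 h knockout arrays lie below.

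Among the transporters, Slc16a3 encodes MCT4, the monocarboxylate transporter that exports lactate. Wild-type signals were 356, 236 and 432 in controls, 284, 254 and 333 after 8 h of RA and 233 and 195 after 72 h. Knockout signals were 674, 365 and 641, then 978, 375 and 773, then 871 and 707. The groups did not overlap at either RA time, and knockout replicate 2 was the lowest of its group at 8 h and in controls. The difference was 1.19 ± 0.32 at 8 h (adjusted p = 0.0498) and 1.88 ± 0.40 at 72 h (adjusted p = 0.0121). The adjusted p passed 0.05 at 8 h without any 1 of 5 arrays, all but knockout replicate 2 (0.0791 to 0.208), and at 72 h without any 1 array (0.063 to 0.132).

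The glucose importers Slc2a1 (GLUT1) and Slc2a3 (GLUT3) differed by 0.14 ± 0.20 and 0.20 ± 0.12 at 8 h and by 0.67 ± 0.25 and 0.39 ± 0.15 at 72 h, and neither was called; with the replicate block both were at 72 h (adjusted p = 0.00824 and 0.0286). Slc2a1 read 13590.4 ± 1076 (SD, n = 2) in wild-type and 21542 ± 695 (SD, n = 2) in knockout cells at 72 h. Its other 2 probe sets, adjusted over all probe sets tested, were called at 72 h with 0.99 ± 0.20 (adjusted p = 0.0121) and 1.11 ± 0.17 (adjusted p = 0.00247), so the probe sets of this gene disagree on the call but not on the direction. Pfkfb3, which makes the allosteric activator of phosphofructokinase, differed by 0.00 ± 0.33 at 8 h and -0.13 ± 0.40 at 72 h.

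Pdk1 encodes the kinase that inhibits pyruvate dehydrogenase and so keeps pyruvate out of the citrate cycle. It read 4595, 4373 and 3401 in wild-type controls, 3268, 3322 and 3192 after 8 h of RA and 1011 and 1400.0 after 72 h. In knockout cells it read 4721, 4918 and 4699, then 3219, 5658 and 3708, then 2118 and 2703. The genotypes overlapped at 8 h, where 1 knockout array stood high, and not at 72 h. The difference was 0.32 ± 0.18 at 8 h (adjusted p = 0.428) and 1.01 ± 0.22 at 72 h (adjusted p = 0.0176). Without wild-type replicate 1 or knockout replicate 2 the adjusted p at 72 h was 0.207 and 0.186.

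Tpi1, triosephosphate isomerase, had the largest genotype difference of the enzymes. Wild-type cells read 5286, 4281 and 2972 in controls, 3489, 4152 and 2777 after 8 h and 3592 and 4584 after 72 h of RA. Knockout cells read 9978, 8282 and 6877, then 7525, 7219 and 6179.8, then 9618 and 10332. The lowest knockout array lay above the highest wild-type array over all conditions. The difference was 1.02 ± 0.20 at 8 h (adjusted p = 0.00849) and 1.30 ± 0.24 at 72 h (adjusted p = 0.00567), and the other 2 probe sets of the gene gave 1.30 and 1.32 at 72 h. Without wild-type replicate 1 or knockout replicate 2 the adjusted p at 72 h was 0.0831 and 0.0628.

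Pgam1 encodes the phosphoglycerate mutase that converts 3-phosphoglycerate to 2-phosphoglycerate. Its signals were 13299, 13909 and 14588 in wild-type controls, 12999, 15110.5 and 14134 after 8 h and 10383 and 10438 after 72 h. Knockout signals were 20560.5, 18786 and 17259, then 17898, 17418 and 21059.7, then 17078 and 18511. All knockout arrays were above all wild-type arrays. The difference was 0.41 ± 0.09 at 8 h (adjusted p = 0.0187) and 0.77 ± 0.11 at 72 h (adjusted p = 0.00123). Pgam1 lies on chromosome 19, whose 414 tested genes had a median difference of 0.48 at both RA times, so its value at 8 h was below that of its chromosome and its value at 72 h above it. Without wild-type replicate 1, wild-type replicate 3 or knockout replicate 3 the adjusted p at 8 h was 0.0813, 0.0511 and 0.0869.

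Ldha, lactate dehydrogenase A, which turns pyruvate into lactate, read 20584, 20379 and 19994 in wild-type controls, 19105, 23396 and 19406 after 8 h of RA and 12909.7 and 14576 after 72 h. Knockout cells read 26579, 25793 and 21888, then 22382, 22804 and 24308, then 21647 and 24307. The genotypes overlapped at 8 h (0.17 ± 0.10, adjusted p = 0.414), whereas at 72 h the wild-type arrays were well below the knockout arrays (0.74 ± 0.12, adjusted p = 0.00201). Pkm, pyruvate kinase, followed the same order, with 18892, 16526 and 19329, then 16114, 18108 and 17609.5, then 13674 and 12995 in wild-type cells. Its knockout signals were 22555, 20040.3 and 18909, then 21597, 17959 and 22347, then 19612 and 19482. The difference was 0.25 ± 0.10 at 8 h (adjusted p = 0.185) and 0.55 ± 0.12 at 72 h (adjusted p = 0.0144), and the latter was 0.0758 to 0.15 without any 1 array of 72 h.

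The 7 other enzymes tested were not called between genotypes at either time without the replicate block. With it, Pgk1 (adjusted p = 0.00337) and Pfkl (0.0478) were called at 8 h, and Pgk1 (0.00221), Pfkl (0.00505), Aldoc (0.0405) and Aldoa (0.0457) at 72 h, all higher in knockout cells. At 72 h their log2 differences were 0.73 ± 0.20 for Pfkl (adjusted p = 0.0549) and 0.39 ± 0.14 for Pfkp, the liver and platelet phosphofructokinases, 0.42 ± 0.21 for Aldoa and 0.71 ± 0.27 for Aldoc, the aldolases, 0.63 ± 0.21 for Pgk1, phosphoglycerate kinase (0.48 ± 0.17 at 8 h), 0.10 ± 0.22 for Hk2 and -0.18 ± 0.20 for Hk1, the hexokinases. Another probe set of Pgk1 was called at 72 h (0.64 ± 0.15, adjusted p = 0.0367 over all probe sets). The hexokinases at the head of the pathway thus had the smallest differences of these genes. Gapdh is represented by control probe sets only and was not tested. Its 3' control probe set read 24459 to 24675 in wild-type and 28898 to 29746 in knockout cells at 72 h. The genotypes overlapped in controls (27320.5 to 30205 and 28501 to 31358) and after 8 h of RA (25172 to 33911 and 28700 to 34286).

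The members that were lower in knockout cells have other roles. Ddit4 (REDD1), an inhibitor of mTORC1 signalling that stress and hypoxia induce, read 635, 500.05 and 668 in wild-type controls, 534, 609 and 648 after 8 h of RA and 919 and 1143 after 72 h. Knockout cells read 395, 306 and 302, then 267, 305 and 318, then 590.5 and 972. Knockout arrays were lower at 8 h with no overlap (-1.01 ± 0.19, adjusted p = 0.00816), and the genotypes overlapped at 72 h (-0.44 ± 0.24, adjusted p = 0.405). P4ha2, an alpha subunit of the prolyl hydroxylase that matures collagen, read 171, 319 and 244, then 204, 309 and 196, then 819 and 1211 in wild-type cells. Knockout cells read 114, 88.2 and 102, then 108, 89.7 and 105, then 726 and 745. The difference was -1.20 ± 0.24 at 8 h (adjusted p = 0.0114, and 0.0531 without wild-type replicate 2) and -0.44 ± 0.30 at 72 h (adjusted p = 0.545). Beside these 2 genes, all 12 extraembryonic endoderm markers were on the lower side in knockout cells at 8 h, with a median of -0.92 and 3 of them called (Lamb1, Gata6 and Cubn), and the part of such cells in the result was not tested.

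Ero1a, the oxidase that drives disulfide bond formation in the endoplasmic reticulum, read 1422, 1235 and 1227 in wild-type controls, 1348, 1239.8 and 1214 after 8 h of RA and 1393 and 1170.4 after 72 h. Knockout cells read 1700.5, 1424 and 1750.2, then 1390.2, 1337 and 1325, then 2058 and 1852. The groups overlapped at 8 h and separated at 72 h, where the difference was 0.61 ± 0.14 (adjusted p = 0.021, and 0.0514 to 0.268 without any 1 array of 72 h). Hif1a, the regulated alpha subunit itself, differed by -0.03 ± 0.14 at 8 h and 0.00 ± 0.17 at 72 h. Mif, a cytokine that is also a HIF target, differed by 0.08 ± 0.10 and 0.27 ± 0.12.

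Treatment with RA for 8 h called no member in either genotype: 0 of 30 were higher and 0 lower, where 0.79% and 0.114% of all genes were in wild-type cells and 0.861% and 0.0966% in knockout cells. At an unadjusted p under 0.05 there were 1 member in wild-type and 5 in knockout cells, against 895 and 986 of all 11387 tested genes. The enzymes had medians of -0.11 and -0.07 and the others -0.03 and -0.08. The lowest values belonged to Egln3 (-0.81 ± 0.33 in wild type, -0.87 ± 0.33 in knockout) and Bnip3 (-0.67 ± 0.41 and -0.72 ± 0.41), and Vegfa had the highest (0.61 ± 0.30 and 0.64 ± 0.30). With the LIF labels exchanged, in wild-type and knockout cells, Bnip3 was at -0.24 and -0.15, Egln3 at -0.60 and -0.47 and Vegfa at 0.51 and 0.47. Without both replicate 1 control arrays, Bnip3 was at -0.28 in each genotype, Egln3 at -0.74 and -0.48 and Vegfa at 0.36 and 0.29. Pfkp in knockout cells came nearest to a call, at -0.47 ± 0.11 (adjusted p = 0.068); its adjusted p was 0.0284 with the replicate number as a block, and it was the 1 member called without knockout control replicate 3.

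Between 8 h and 72 h of RA, P4ha1 and P4ha2, subunits of the collagen prolyl hydroxylase, and Egln1 and Egln3, the HIF prolyl hydroxylases, rose in both genotypes, and Pdk1 fell in both. In wild-type cells 6 of 30 members rose (P4ha2, P4ha1, Egln1, Egln3, Ddit4 and Vegfa) and 5 fell (Pdk1, Ldha, Kdm3a, Pgam1 and Pkm), where 14.1% of all genes rose and 8.18% fell. In knockout cells 8 rose (P4ha2, Ndufa4l2, Egln3, P4ha1, Ddit4, Ankrd37, Egln1 and Ero1a) and 1 fell (Pdk1), where 12.7% of all genes rose and 6.52% fell. Ndufa4l2 passed the filter through knockout arrays alone, and without it 7 of 29 members rose in knockout cells. With the replicate block, Hk1 (0.45 ± 0.15, adjusted p = 0.0395) and Slc2a3 (0.27 ± 0.10, 0.0479) also rose and Pfkp (-0.36 ± 0.12, 0.0355) also fell in wild-type cells, and Pfkl (0.47 ± 0.13, 0.0165), Slc2a1 (0.47 ± 0.13, 0.0158), Slc2a3 (0.46 ± 0.10, 0.00286) and Vegfa (0.996 ± 0.249, 0.00813) also rose in knockout cells. The enzymes had a median change of -0.35 in wild-type and -0.01 in knockout cells, the other targets 0.24 and 0.61, and all genes 0.06 in each. Of the 19 other targets, 14 were above 0 in wild-type and 18 in knockout cells, against 6316 and 6303 of all 11387 tested genes. The wild-type count was 7 without wild-type 8 h replicate 2 and 5 without wild-type 72 h replicate 2, and the knockout count was 5 without knockout 72 h replicate 1. Over the same interval 10 of 12 extraembryonic endoderm markers rose in each genotype, with medians of 1.92 and 2.56, and the part of such cells in the members' changes was not tested.

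P4ha2 rose the most, by 2.11 ± 0.27 in wild-type (adjusted p = 7.25e-05) and 2.87 ± 0.27 in knockout cells (adjusted p = 7.49e-06), from the array values given above. P4ha1, the other alpha subunit of the collagen prolyl hydroxylase, read 201, 208 and 272 in wild-type controls, 216, 170.4 and 201 after 8 h and 409 and 453 after 72 h. Knockout cells read 172, 197 and 171, then 234, 204 and 250.3, then 566 and 677. All 72 h arrays were above all earlier arrays of their genotype, and the rises were 1.14 ± 0.19 (adjusted p = 0.000627) and 1.44 ± 0.19 (adjusted p = 0.000127).

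Egln1 (PHD2), the main oxygen sensor that marks HIF alpha for degradation, read 439, 388 and 559, then 487, 478 and 581, then 1156 and 1063 in wild-type cells. Knockout cells read 405, 400.0 and 401, then 428, 404 and 461, then 1072 and 823. The rises were 1.11 ± 0.17 (adjusted p = 0.000339) and 1.13 ± 0.17 (adjusted p = 0.000413), and the difference between them was 0.01 ± 0.25. Between genotypes Egln1 differed by -0.25 ± 0.16 at 8 h and -0.24 ± 0.19 at 72 h, close to the medians of the 638 tested genes of its chromosome 8, -0.24 and -0.29. Egln3 (PHD3), a sensor that HIF itself induces, read 168, 153 and 136, then 76.6, 74.3 and 113, then 137 and 293 in wild-type cells. Knockout cells read 364, 160.2 and 163, then 87.8, 137 and 130.4, then 345 and 324. Its lowest values were at 8 h of RA in both genotypes, and 1 of the wild-type 72 h arrays lay among the control values. The rises were 1.22 ± 0.37 (adjusted p = 0.0295) and 1.53 ± 0.37 (adjusted p = 0.0102). A second Egln3 probe set went the other way in wild-type cells (-0.30 ± 0.46, adjusted p = 0.719 over all probe sets), and the wild-type call was lost without wild-type 8 h replicate 1 (0.0783), 8 h replicate 2 (0.0807) or 72 h replicate 2 (0.366). The knockout call was lost without either 72 h array (0.0758 and 0.0632).

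Ddit4 rose by 0.78 ± 0.22 in wild-type (adjusted p = 0.0166, and 0.173 without 72 h replicate 2 or 0.0552 without 8 h replicate 1) and by 1.36 ± 0.22 in knockout cells (adjusted p = 0.000521). Ndufa4l2 rose by 1.82 ± 0.29 in knockout cells (adjusted p = 0.000583), and its wild-type value was 0.40 ± 0.29 (adjusted p = 0.367). Since it passed the filter through knockout arrays alone, its knockout rise is a description. Ero1a rose by 0.53 ± 0.13 in knockout cells (adjusted p = 0.00937, and 0.101 without 72 h replicate 1), with 0.01 ± 0.13 in wild-type cells. Ankrd37, a small ankyrin repeat protein and HIF target, rose in knockout cells (1.23 ± 0.35, adjusted p = 0.0234), with means of 209 ± 81.2 (SD, n = 3) at 8 h and 469 ± 76.6 (SD, n = 2) at 72 h. That call was lost without 4 single arrays, all but knockout 8 h replicate 3 (adjusted p 0.0521 to 0.175). Vegfa, the angiogenic growth factor, rose in wild-type cells from 347 ± 74.5 (SD, n = 3) to 718 ± 10.2 (SD, n = 2), a change of 1.07 ± 0.34 (adjusted p = 0.0323), and the adjusted p was 0.0809 to 0.142 without any 1 array but 8 h replicate 3.

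The members that fell between 8 h and 72 h were led by Pdk1, with -1.45 ± 0.20 in wild-type (adjusted p = 0.000142) and -0.77 ± 0.20 in knockout cells (adjusted p = 0.0164, and 0.179 without 72 h replicate 1). In wild-type cells Ldha fell by 0.58 (SE 0.11, adjusted p = 0.00122), Pgam1 by 0.43 (SE 0.10, adjusted p = 0.0072, and 0.0555 or 0.0558 without either 72 h array) and Pkm by 0.37 (SE 0.11, adjusted p = 0.0228, and 0.0583 to 0.156 without any 1 array but 8 h replicate 1). The knockout values of these enzymes were -0.01, -0.07 and -0.07, none called. Kdm3a, a histone demethylase that HIF induces, fell in wild-type cells from 7739 ± 1383 (SD, n = 3) to 5304 ± 1044 (SD, n = 2), a change of -0.54 ± 0.15 (adjusted p = 0.016, and 0.0583 without 8 h replicate 2 or 0.246 without 72 h replicate 2). Its knockout value was 0.04 ± 0.15.

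**Figure D3:**
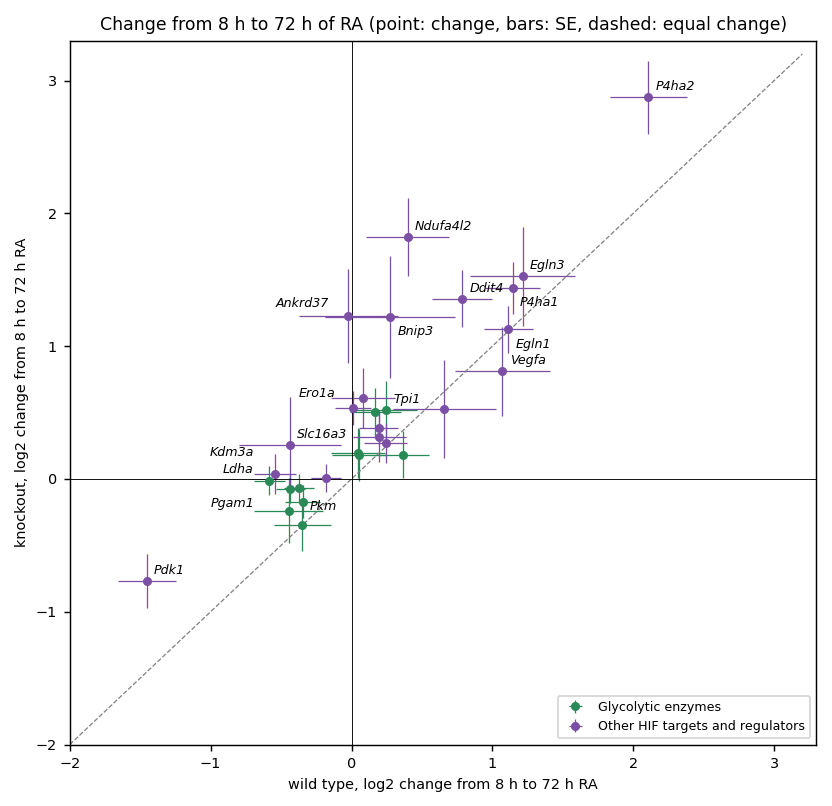
Log2 change from 8 h to 72 h of RA in wild-type cells (x axis) and in knockout cells (y axis) for the 30 tested genes, with SE bars; the dashed line marks equal change. Pdk1 lies lowest on both axes, P4ha2 highest on both, and 27 of 30 genes lie above the dashed line.

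The difference between genotypes in this change was tested directly and called no member (0 of 30 higher and 0 lower, where 0.0176% and 0.351% of all genes were). At an unadjusted p under 0.05 there were 7 members, and 704 of all 11387 tested genes. Ankrd37 was at 1.25 ± 0.50 (adjusted p = 0.66) and Bnip3 at 0.94 ± 0.65 (adjusted p = 0.956), and Ldha had the smallest adjusted p (0.57 ± 0.15, adjusted p = 0.219). Of all 11387 tested genes 5858 were above 0. Of 30 members 27 were above 0, with medians of 0.20 for the enzymes, 0.52 for the others and 0.01 for all genes. These members share the 10 arrays of the RA groups, and the count above 0 has no test. For Ndufa4l2 the value of 1.42 ± 0.42 (adjusted p = 0.285) is set in part by the floor, since 4 of its 5 wild-type RA arrays lie below it. With a floor of 100 in place of 50 it was called (1.67, adjusted p = 2.7e-05), a setting in which every wild-type array of this gene lies at the floor, and neither value measures a difference in change. A fall in wild-type cells that was not called in knockout cells, as for Ldha, Pgam1, Pkm and Kdm3a, was thus not shown to differ between them.

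**Figure D4:**
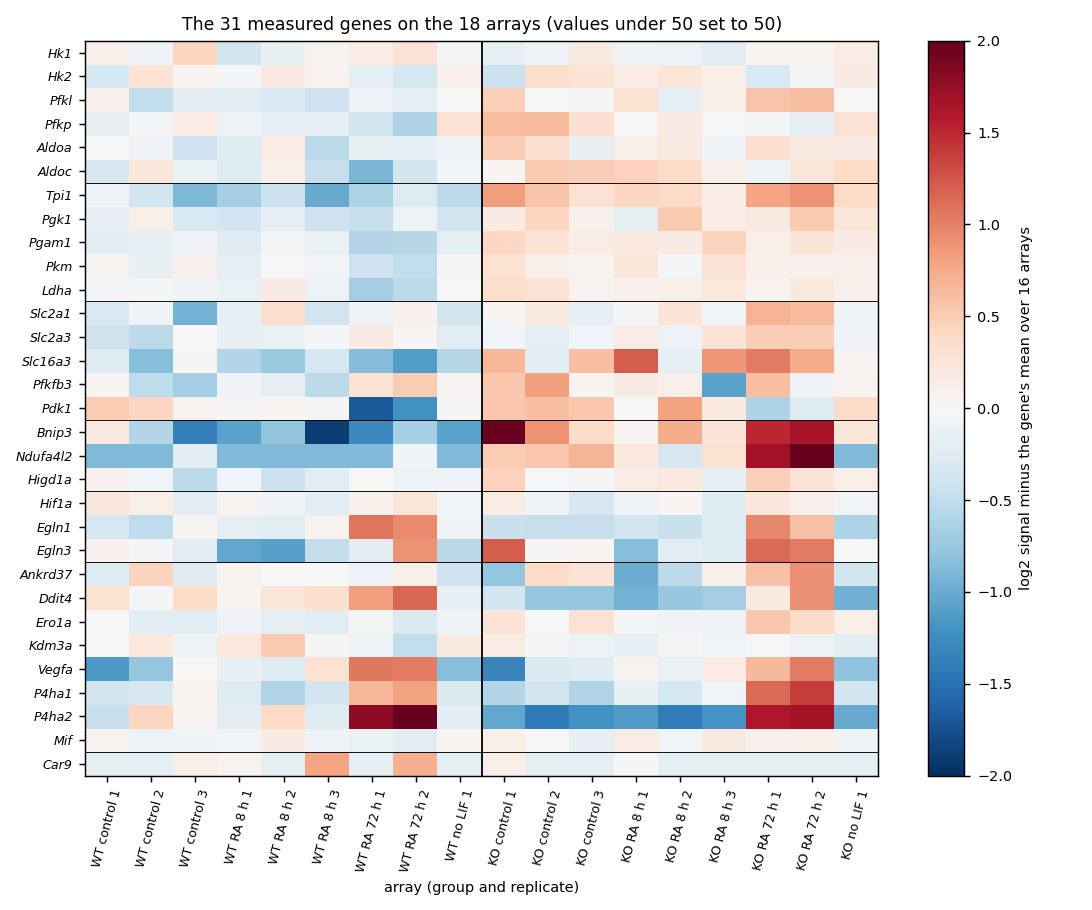
Log2 signal of the 31 measured genes (y axis, by role) on the 18 arrays (x axis, wild type left and knockout right of the line), each minus the gene's mean over the 16 replicated arrays. Bnip3, Ndufa4l2, Tpi1 and Slc16a3 are high in knockout arrays, and P4ha1, P4ha2 and Egln1 are high at 72 h in both genotypes.

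Over the 6 group means of log2 signal, the members whose pattern was most like that of Bnip3 were Tpi1 (Pearson r = 0.99), Aldoa (0.989), Pgk1 (0.988), Pfkl (0.94) and Ndufa4l2 (0.938). These are descriptions over 6 groups that share the same arrays, and genes on an array are not independent. For Aldoa the group means were 11447 and 15071 in wild-type and knockout controls, 11139 and 13442 after 8 h of RA and 11342 and 15171 after 72 h, and its genotype differences were not called. Car9, a carbonic anhydrase with low basal signal and strong induction by hypoxia, had group means of 26.9 to 71.7 and gives no comparison.

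Other genes of the pathways were set beside the members. Among 14 tested glycolysis genes outside the list, none was called between genotypes at 8 h or 72 h, and their medians were -0.07 at both times. Of these genes 0 and 2 had an unadjusted p under 0.05, and of all 11387 tested genes 1922 and 1821. Between 8 h and 72 h the muscle-type mutase Pgam2 rose by 2.01 ± 0.49 in wild-type and 3.77 ± 0.49 in knockout cells, Bpgm rose by 0.91 ± 0.17 in knockout cells, and Tigar, a fructose bisphosphatase, fell in both (-1.05 ± 0.24 and -1.11 ± 0.24). Gpd2 fell in wild-type cells (-0.80 ± 0.21). In all, 1 of the 14 rose and 3 fell in wild-type cells, where 14.1% of all tested genes rose and 8.18% fell. In knockout cells 2 rose and 2 fell, where the shares were 12.7% and 6.52%. Among 25 other HIF targets, 0 were higher and 3 lower in knockout cells at 8 h (Plin2 -1.12 ± 0.17, Igfbp3 -1.39 ± 0.34 and Hmox1 -0.75 ± 0.16), where 1.7% of all tested genes were higher and 2.91% lower. At 72 h 2 were higher and 2 lower (Angptl4 0.92 ± 0.14, Tfrc 0.45 ± 0.09 and Plin2 -1.02 ± 0.21 among them), where the shares were 1.39% and 2.68%. The medians of the 25 targets follow. Their medians were -0.01 and -0.07. Between 8 h and 72 h, 7 of the 25 rose and 4 fell in wild-type cells and 7 rose and 2 fell in knockout cells. Of all tested genes 14.1% rose and 8.18% fell in wild-type cells, and 12.7% rose and 6.52% fell in knockout cells. Plin2, a lipid droplet coat protein, had the smallest adjusted p in both (1.84 ± 0.19 and 1.94 ± 0.19). In wild-type cells Ccng2 rose (2.01 ± 0.28) and Angptl4 fell (-1.16 ± 0.13). In knockout cells Plod2 rose (1.21 ± 0.20) and Ndrg1 fell (-1.39 ± 0.25). After 8 h of RA itself, Gys1, glycogen synthase, rose in both genotypes (1.13 ± 0.19 and 0.96 ± 0.19) and Ndrg1 fell in both (-1.11 ± 0.22 and -1.09 ± 0.22). Vldlr rose in knockout cells (1.02 ± 0.23). In all, 1 of the 25 rose and 1 fell in wild-type cells, where 0.79% of all tested genes rose and 0.114% fell. In knockout cells 2 rose and 1 fell, where the shares were 0.861% and 0.0966%.

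Of 15 HIF subunits and oxygen sensing genes, Epas1, which encodes HIF-2 alpha, was the 1 called between genotypes, at 72 h (1.07 ± 0.20, adjusted p = 0.00537). Of all tested genes 1.39% were higher in knockout cells at that time. Epas1 fell in wild-type cells between 8 h and 72 h (-0.96 ± 0.18, adjusted p = 0.00138). Over that interval Arnt2 rose in wild-type cells (1.45 ± 0.44) and Cul2 rose in knockout cells (0.52 ± 0.13). Of 23 genes of the citrate cycle and pyruvate oxidation none was called between genotypes, with medians of 0.03 and 0.02 and 1 gene at an unadjusted p under 0.05 at each time. Mpc1, a subunit of the mitochondrial pyruvate carrier, rose after 8 h of RA (0.50 ± 0.09 and 0.53 ± 0.09) and fell between 8 h and 72 h (-0.76 ± 0.10 and -0.92 ± 0.10) in wild-type and knockout cells. Pdhb also fell between 8 h and 72 h in both (-0.53 ± 0.13 and -0.51 ± 0.13), and Sdhd fell in wild-type cells (-0.49 ± 0.14). Over that interval 4 of the 23 fell in wild-type and 2 in knockout cells, where 8.18% and 6.52% of all tested genes fell, and 0 rose in either. None of 6 pentose phosphate genes and none of 8 mitophagy genes other than Bnip3 was called between genotypes, with 0 and 0 pentose phosphate genes and 2 and 1 mitophagy genes at an unadjusted p under 0.05. The mitophagy genes Sqstm1 and Pink1 rose between 8 h and 72 h in both genotypes, by 0.54 and 0.56 and by 0.93 and 0.95. Phb2 of the same list fell in wild-type cells (-0.54 ± 0.15). In all, 2 of 8 mitophagy genes rose and 1 fell in wild-type cells, where 14.1% of all tested genes rose and 8.18% fell. In knockout cells 2 rose and 0 fell, where the shares were 12.7% and 6.52%. The pentose phosphate gene Taldo1 rose in wild-type cells over that interval (0.37 ± 0.11).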

How the data were processed

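Total RNA of 18 samples was measured on 1-colour Affymetrix arrays. The authors deposited 1 table of signal intensity per probe set, made with MAS5 per the submitters' processing notes; its version is not given in the sources. Trimmed by 2% at each end, the arrays of this table all averaged 500. Symbols came from the platform annotation, updated through RefSeq records of GRCm38.p6, with 0 symbols changed: of 45101 probe sets 34958 had 1 symbol, 932 several and 9211 none. Signals were floored at 50 before taking log2. A gene is its probe set of highest mean log2 over 18 arrays. The 16 arrays of 6 groups entered 1 fit with limma 3.58.1 in R 4.3.3 (lmFit, eBayes with trend, 10 residual degrees of freedom, two-sided, Benjamini-Hochberg over 11387 genes). The test was checked on simulated data. The members and the lists beside them were chosen with earlier results of these data known. Arrays give no count depth; the number of arrays limits the precision. Signal is never compared between probe sets.

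Values on every array are given for the 14 members with the smallest adjusted p among those called. For the neighbouring pathway lists up to 3 called members per comparison are named, those with the smallest adjusted p. Cell type markers are given by sums, counts or medians, and only some of their called genes are named. The labels number repeats 2 and 3 in knockout cells and some in wild-type cells, where the others were numbered in accession order. Deviations of same-numbered control and 8 h RA arrays correlated at 0.359 to 0.504 in wild-type and 0.143 to 0.271 in knockout cells, and across genotypes at 0.277 to 0.50 in controls, 0.266 to 0.291 after 8 h and 0.152 after 72 h. Calls that change with that number as a block are given beside the results. Alternatives were a floor of 100, log2 of signal plus 32, no filter, a stricter filter, quantile normalization, the replicate block, exchanged LIF labels, the mean of probe sets, a fit of the compared groups alone, each array left out, and, chosen after seeing the data, both replicate 1 controls left out.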

Additional observations from a re-analysis of the deposited data

How the results depend on the processing

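For the 35 calls of members, 487 alternative values were computed: 0 reversed, 80 were no longer past the threshold and 15 calls held in every alternative run for them, among them P4ha2, P4ha1 and Egln1 between 8 h and 72 h in both genotypes, Tpi1 and Ddit4 between genotypes at 8 h, and Ndufa4l2, Ldha and Pgam1 between genotypes at 72 h. Other genotype calls at 8 h were less steady. Slc16a3 held in 6 alternatives and was lost in 9, and Bnip3 held in 7 and was lost in 8. Pgam1 held in 11 and was lost in 4, and P4ha2 held in 14 and was lost in 1. Pgam1 lies on chromosome 19, whose tested genes had a median genotype difference of 0.48 at 72 h. Ndufa4l2 was picked for its untreated knockout signal and passed the filter through knockout arrays alone. Its genotype call that held is therefore a description and no support. With the replicate block, 15 members were called between genotypes at 72 h (9 without it), 9 at 8 h (6 without it), 14 between 8 h and 72 h in wild-type cells (11), 13 in knockout cells (9), 1 after 8 h of RA in knockout cells (0), 0 after 8 h of RA in wild-type cells (0) and 0 in the genotype difference of the later change (0). With the LIF labels exchanged 15 members were called between 8 h and 72 h in knockout cells (9 as labelled), and all 35 calls held. That comparison holds no control array, so the exchange left its log2 differences unchanged. What changed was the estimate of the spread, which all groups share. For the untreated genotype difference the standard error fell from 0.41 to 0.28 for Bnip3 and rose from 0.26 to 0.37 for Ndufa4l2. With a floor of 100, Ndufa4l2 was the 1 member called in the genotype difference of the change from 8 h to 72 h. For these settings and the block no share of all genes called is given, so the counts have no background beside them. Leaving out 1 array at a time gave 5 to 10 members between 8 h and 72 h in each genotype, 3 to 6 between genotypes at 8 h, 3 to 6 at 72 h, 0 to 1 after 8 h of RA in knockout cells and 0 after 8 h of RA in wild-type cells. The median control difference of the 30 members was 0.30, and 0.24 to 0.31 with 1 array left out. Between 41.6% and 48.3% of probe sets lay below the floor on an array, which limits Ndufa4l2 and Car9. With 2 arrays a group at 72 h, leaving out 1 leaves a single array.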
